A study of Homo sapiens with 38 samples.

Results

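The data below concern 10 genes for transcription factors, grouped here as T-cell identity factors and their relatives: TCF7, LEF1, TOX, TOX2, SOX4, BCL11A, BCL11B, IKZF1, IKZF2 and IKZF3. They are 10 of 20033 protein-coding genes in the RefSeq table of GRCh38.p14 whose windows could be counted. The window of a gene was its RefSeq record with 100 kb added on each side, and each line (1 listed region of enriched signal) of 3 deposited peak lists that touched a window was taken. This gave 143 of 29009 GATA3 lines, 136 of 26205 BHLHE40 lines and 373 of 113570 H3K27ac lines. No line fell into the windows of more than one of these genes.

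The lists come from chromatin immunoprecipitation followed by sequencing in Jurkat, an established line from a T-cell acute lymphoblastic leukaemia (T-ALL), so 1 leukaemic line stands for T cells here. All 3 groups used here carried the control lentivirus named Ctrl_LV and were stimulated with a phorbol ester (PMA, 50 ng/ml) plus the calcium ionophore ionomycin (500 ng/ml), which together mimic signalling from the T-cell receptor. The sample labels give 5 hours of stimulation and the treatment protocol 2 hours. They differ in the antibody, against GATA3, against BHLHE40 or against histone H3 acetylated at lysine 27 (H3K27ac), a mark of active promoters and enhancers. Each group has 2 samples but 1 list for both, so no value per sample, no spread between replicates and no test over samples can be given, and the sequencing depth is unknown. The remaining 16 of 19 groups were not analysed here. As a check of the cell-type label, an H3K27ac line lay within 1 kb of a gene start at 9 of 9 T-cell marker genes, 1 of 4 B-cell, 0 of 4 myeloid and 0 of 3 erythroid marker genes. Over all protein-coding genes with an annotated start the share was 57.6%. These lists show where the proteins and the mark lay, not how strongly the 10 genes were transcribed.

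GATA3 is a zinc-finger factor needed for T-cell development, and BHLHE40 is a basic helix-loop-helix repressor induced on activation. TCF7 (which encodes the protein TCF-1) and LEF1 are partner factors of beta-catenin that start and maintain the T-cell programme, and BCL11B commits progenitors to the T lineage. TOX, TOX2 and SOX4 are HMG-box proteins, like TCF-1 and LEF-1. The Ikaros family, encoded by IKZF1 (Ikaros), IKZF2 (Helios) and IKZF3 (Aiolos), consists of zinc-finger proteins that recruit chromatin-remodelling complexes in lymphocytes.

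Promoter sequence is shown first for 4 members, because these start regions differed in which lists covered them. Each sequence is the 250 bases upstream of the annotated start at the end of the gene record, read 5′ to 3′ on the gene's strand, from RefSeq (GRCh38.p14). SOX4 is on the plus strand at chr6:21593501-21593750. BCL11B is on the minus strand at chr14:99272198-99272447, IKZF2 on the minus strand at chr2:213152457-213152706 and BCL11A on the minus strand at chr2:60553925-60554174. Capitals mark a match to the E-box CACGTG, the letters that BHLHE40 is known to prefer, or to a GATA motif (AGATAA together with AGATAG, with TGATAA and with TGATAG), in each case searched on both strands.
SOX4: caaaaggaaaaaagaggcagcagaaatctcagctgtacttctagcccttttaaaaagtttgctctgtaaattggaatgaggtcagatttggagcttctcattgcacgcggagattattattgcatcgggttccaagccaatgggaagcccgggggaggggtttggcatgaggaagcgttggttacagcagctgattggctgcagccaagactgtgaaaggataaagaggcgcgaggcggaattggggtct
BCL11B: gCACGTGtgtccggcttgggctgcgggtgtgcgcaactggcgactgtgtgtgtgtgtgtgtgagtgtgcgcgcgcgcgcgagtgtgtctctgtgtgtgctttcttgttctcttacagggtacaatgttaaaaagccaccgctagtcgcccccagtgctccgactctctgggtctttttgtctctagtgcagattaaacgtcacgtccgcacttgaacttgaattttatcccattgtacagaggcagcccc
IKZF2: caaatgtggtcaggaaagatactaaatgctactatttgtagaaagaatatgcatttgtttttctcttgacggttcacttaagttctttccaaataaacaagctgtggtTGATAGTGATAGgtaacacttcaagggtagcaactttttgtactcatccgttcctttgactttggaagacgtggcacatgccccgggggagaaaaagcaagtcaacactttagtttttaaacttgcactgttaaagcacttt
BCL11A: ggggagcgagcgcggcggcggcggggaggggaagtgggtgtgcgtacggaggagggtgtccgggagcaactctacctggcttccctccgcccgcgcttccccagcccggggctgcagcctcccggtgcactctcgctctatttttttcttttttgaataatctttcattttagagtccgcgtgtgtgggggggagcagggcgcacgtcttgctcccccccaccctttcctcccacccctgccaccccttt
The SOX4, BCL11B and IKZF2 stretches were each touched by a GATA3 line and a BHLHE40 line, and those of BCL11B and IKZF2, but not SOX4, by an H3K27ac line as well. This BCL11A stretch was touched by no line of any list. Of the 5 BCL11A stretches in the table, another was touched by a BHLHE40 line and another by an H3K27ac line. BCL11B held CACGTG with its first base 249 bp before the start, and IKZF2 held TGATAG in tandem, at 142 bp and 136 bp before the start. Neither motif was found in the SOX4 stretch or in the BCL11A stretch. A match is a description of letters, and no match says only that these letters are not in this window.

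Over all 8 members in the promoter table there were 17 such stretches. CACGTG was found in 1 of them, against 7.37% of 22198 stretches of protein-coding genes, and a GATA motif in 3 of them, against 17.9%. The remaining GATA matches were upstream of the IKZF1 start at 50319048, as AGATAA 106 bp before it and as TTATCT 72 bp before it, and upstream of the TOX2 start at 43945896, as TGATAA 142 bp before it. Of the 17 stretches, 8 were touched by a BHLHE40 line, 4 by a GATA3 line and 7 by an H3K27ac line. Over all 22198 stretches, 9410 were touched by a BHLHE40 line and 3970 by a GATA3 line, so the members' shares are near the background. For H3K27ac no such share was at hand. Over all protein-coding genes, CACGTG was present in 10.1% of the 9410 stretches touched by a BHLHE40 line and in 5.40% of the 12788 others. The GATA letters showed no such excess, with 16.9% of the 3970 stretches touched by a GATA3 line and 18.1% of the 18228 others.

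LEF1, IKZF1, IKZF2, TOX and TCF7 had the densest windows in all 3 lists. For both factors IKZF3, TOX2 and SOX4 followed, and BCL11B and BCL11A had the fewest lines for their length. For H3K27ac the order was IKZF3, SOX4, BCL11B, TOX2 and BCL11A. Because the windows differ in length, from 204.9 kb for SOX4 to 513.7 kb for TOX, densities are given as lines per 100 kb. The median over the 10 windows was 3.76 GATA3 lines per 100 kb, against 1.28 over all 20033 protein-coding windows. The same medians were 4.32 against 1.52 for BHLHE40 and 12.5 against 5.79 for H3K27ac. In each list 8 of the 10 members lay above the median of all windows. All 10 windows held at least 1 line of each list, which is near the background, since 87% of all gene windows held a GATA3 line, 87.2% a BHLHE40 line and 95.9% an H3K27ac line.

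IKZF2, whose product Helios is made in regulatory T cells, had the highest GATA3 density, with 29 lines (8.22 per 100 kb, above 99.8% of all gene windows), 19 BHLHE40 lines (5.39 per 100 kb) and 63 H3K27ac lines (17.9 per 100 kb). IKZF1 followed with 22 GATA3, 19 BHLHE40 and 49 H3K27ac lines (7.29, 6.30 and 16.2 per 100 kb). LEF1 had 21 GATA3, 23 BHLHE40 and 53 H3K27ac lines (6.53, 7.16 and 16.5 per 100 kb). These 3 windows were each above 95% of all gene windows in every list. TOX, which shapes CD4 T-cell development and the exhausted state, had 33 GATA3, 26 BHLHE40 and 79 H3K27ac lines (6.42, 5.06 and 15.4 per 100 kb), the largest counts of the 10 in the longest window. TCF7 had 11 GATA3, 17 BHLHE40 and 35 H3K27ac lines (4.58, 7.08 and 14.6 per 100 kb).

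The remaining windows differed by list. TOX2, a paralog of TOX, had 9 GATA3 and 12 BHLHE40 lines (2.54 and 3.38 per 100 kb), but its 20 H3K27ac lines (5.64 per 100 kb) were just under the median of all gene windows. IKZF3 had 9 GATA3, 11 BHLHE40 and 32 H3K27ac lines (2.94, 3.59 and 10.4 per 100 kb). SOX4, a single-exon gene expressed in early thymocytes, had 5 GATA3, 4 BHLHE40 and 17 H3K27ac lines (2.44, 1.95 and 8.30 per 100 kb). The paralogous pair BCL11A and BCL11B had the lowest factor densities. BCL11B, just above the median of all gene windows for H3K27ac, had 3 GATA3, 3 BHLHE40 and 18 H3K27ac lines (0.990, 0.990 and 5.94 per 100 kb). BCL11A, a factor of B-cell and globin-gene control, had 1 GATA3 line, 2 BHLHE40 lines and 7 H3K27ac lines (0.330, 0.659 and 2.31 per 100 kb), the fewest of the 10.

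**Figure D1:**
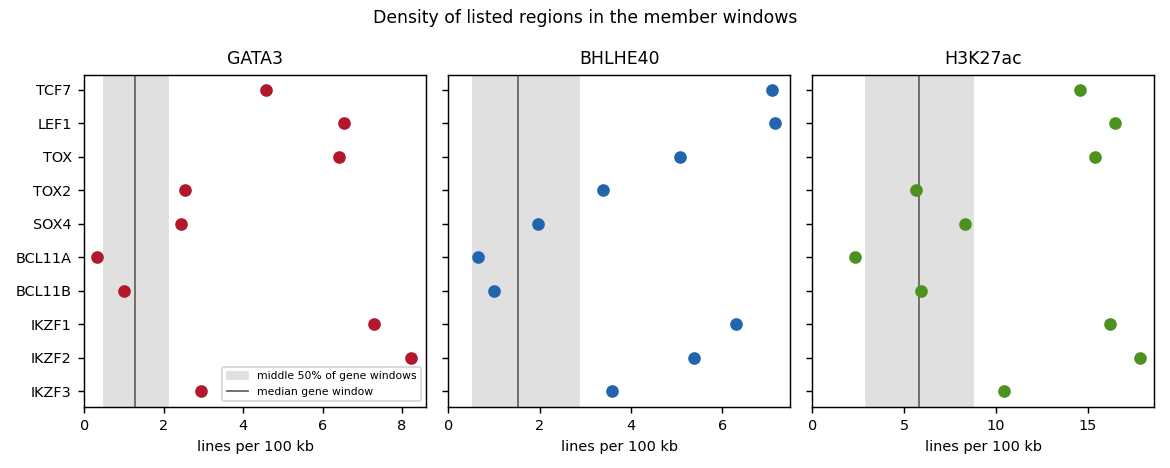
Lines per 100 kb (horizontal axis) in the window of each of the 10 genes (vertical axis), in 1 panel per list; points are single windows without replicate error, the line is the median and the band the middle 50% of 20033 protein-coding windows. BCL11A and BCL11B lie at or below the median for both factors, while LEF1, IKZF1, IKZF2, TOX and TCF7 lie far above the band in every list.

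The windows also hold neighbouring genes, which limits how far a line can be tied to a member. The windows of TOX, BCL11B and IKZF2 held no other protein-coding record, and those of TOX2, SOX4 and BCL11A held 1 each. TCF7 shared its window with 4 (VDAC1, SKP1, PPP2CA and LOC124901069), LEF1 with 3, IKZF1 with 2 (FIGNL1 and DDC) and IKZF3 with 12, among them ERBB2, ORMDL3 and GSDMB. Of the lines, 89 of 143 GATA3, 75 of 136 BHLHE40 and 187 of 373 H3K27ac lines touched the record of the member itself. In the GATA3 list this was 20 of 33 for TOX, 17 of 29 for IKZF2, 15 of 22 for IKZF1, 13 of 21 for LEF1, 9 of 9 for TOX2 and 3 of 11 for TCF7. These counts are not corrected for record length. The record takes up 313.7 of 513.7 kb of the TOX window but only 40 of 240 kb of the TCF7 window.

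Single strong GATA3 lines marked 6 of the 10 windows. A line among the strongest 1% of the GATA3 list, which begins at a signal value of 96.1 (the authors' enrichment value per line), lay in the windows of TOX, TCF7, LEF1, IKZF1, TOX2 and IKZF3, 1 in each. Such a line lay in 3.77% of all protein-coding windows, and in 4.44% of the 3174 windows at least as long as the members' median of 305.0 kb. In the BHLHE40 list, 7 of 10 windows held a line among the strongest 5%, against 17.9% of all windows (17.7% of the long ones), and none of the 10 held one among the strongest 1%, against 3.67%. The bulk of the members' lines was not unusually strong, since the median signal value was 11.1 for their GATA3 lines against 11.2 for the list, and 9.36 against 9.35 for BHLHE40. Likewise 12.6% of their GATA3 lines and 12.5% of their BHLHE40 lines were among the strongest 10%.

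**Figure D2:**
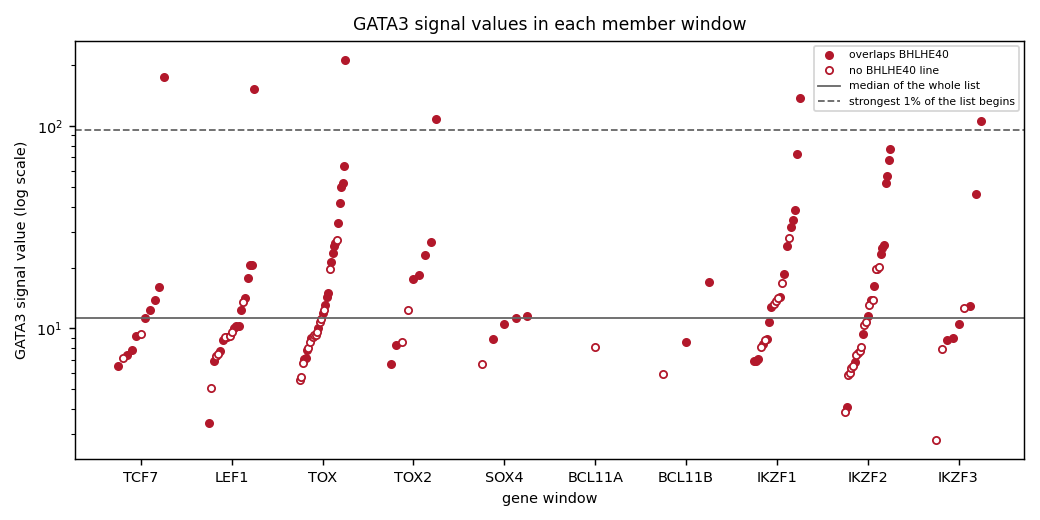
GATA3 signal value (vertical log axis) of each of the 143 lines, by gene window (horizontal axis), in rising order within a window; filled points overlap a BHLHE40 line and open points do not. One point stands above the dashed line, the start of the strongest 1% at 96.1, in each of 6 windows, and none does for SOX4, BCL11A, BCL11B or IKZF2.

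TOX carried the strongest GATA3 line of all 10 windows. It spanned chr8:58800756-58803359, had a signal value of 213 (rank 10 of 29009) and had its summit 3.79 kb outside the lower-coordinate end of the TOX record, outside any protein-coding record. The strongest BHLHE40 line of the window covered the same place, from 58800609 to 58803290, with a signal value of 54.6 (rank 287 of 26205) and its summit 27 bp away. So did the strongest H3K27ac line of the window, from 58800882 to 58801528, with a signal value of 10.3. Inside TOX, at 59056311 to 59057168, lay another place with nearly the same BHLHE40 strength (51.4) and a GATA3 signal value of 63.7. A further TOX line, 90.7 kb beyond the higher-coordinate end at 59209278 to 59210138, had a GATA3 signal value of 52.1 and touched no H3K27ac line.

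At TCF7 the ratio of the strongest GATA3 line to the next was the largest among the members with more than 1 line. The GATA3 line at chr5:134086309-134088041 had a signal value of 174 (rank 27), 10.9 times that of the next TCF7 line at 16.0. It lay 21.3 kb below the lower-coordinate end of the TCF7 record, inside the record of VDAC1, a mitochondrial channel gene, so its place does not tell the 2 genes apart. The BHLHE40 line there, from 134086233 to 134087714, had a signal value of 46.2 (rank 459), and its summit was 184 bp from that of GATA3. Within TCF7 itself the BHLHE40 line at 134131878 to 134132991 (25.9) was the strongest. The strongest H3K27ac lines of the window belonged to its neighbours, with 18.8 near SKP1 and 13.4 in PPP2CA, against 6.86 at the TCF7 start.

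LEF1 carried its strong place inside the gene. The GATA3 line at chr4:108107613-108108964 had a signal value of 153 (rank 50), 7.45 times the next, and its summit lay 60.8 kb inside the record from the lower end. The BHLHE40 line from 108107613 to 108109133 (42.4, rank 570) had its summit 56 bp away, and the strongest H3K27ac line of the window, 108107655 to 108108211 (10.9), overlapped both. This place lay in the densest 25 kb of the locus, which held 12 factor summits, 6 of each factor. Within 6 kb of the higher-coordinate end of the record, where LEF1 starts, BHLHE40 lines of 17.7, 18.8 and 19.8 followed one another.

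In TOX2 all 9 GATA3 lines touched the gene record, and the strongest place was again shared. GATA3 at chr20:43949867-43950966 had a signal value of 108 (rank 194), 4.05 times the next, and BHLHE40 at 43949776 to 43950914 had 52.2 (rank 324), with summits 27 bp apart. The H3K27ac line there reached only 4.11, and the strongest H3K27ac line anywhere in the window only 4.58, the lowest such maximum of the 10.

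Among the Ikaros genes, IKZF1 had its strongest GATA3 line inside the gene, at chr7:50332372-50334607, with a signal value of 138 (rank 82). A further intragenic line at 50396589 to 50397568 had 73.1. The BHLHE40 line within the first of these had a signal value of 34.8, but the strongest BHLHE40 line of the window, 38.9 (rank 711), lay 36.4 kb below the lower end of the record, at 50266436 to 50267435. There the GATA3 list had a weaker line, so both factors shared the place but differed in their order of strength.

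IKZF2, like TOX, had several strong places, and none of its 4 strongest GATA3 lines was inside the gene. Its strongest GATA3 lines had signal values of 77.5, 67.8, 56.5 and 52.3 and lay on either side of the gene record. The first, at chr2:213232634-213234382, had its summit 80.8 kb beyond the higher-coordinate end, nearer to the record of SPAG16, and the strongest BHLHE40 line of the window (33.3, rank 1050) had its summit 8 bp away. The line of 67.8, at 212956962 to 212960195, was 40.9 kb below the lower end and held the strongest H3K27ac line of the window (5.50). In IKZF3 the strongest GATA3 line, at chr17:39813314-39814451, had a signal value of 106 (rank 206) and lay in the gene, with a BHLHE40 line of 26.3 whose summit was 10 bp away. The strongest BHLHE40 line of that window (31.8, rank 1178) lay 3.18 kb below the lower end of the record, at 39753438 to 39756381. As at TCF7, the strongest H3K27ac lines were those of neighbours, with 15.1 in PGAP3 and 13.6 in MIEN1.

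SOX4 and the BCL11 genes had no strong line of either factor. The strongest GATA3 line of SOX4, at chr6:21596624-21597584 inside the gene, had a signal value of 11.5 (rank 14074), close to the median of the list. The SOX4 lines were clustered, since 8 of its 9 factor summits fell within 25 kb around the gene, and its BHLHE40 lines were wide, with a median of 2878 bp against 739 bp for the list. In BCL11B the strongest GATA3 line, at chr14:99262291-99262934, had a signal value of 17.0 (rank 8249), and all 6 factor summits lay within 25 kb at the end of the record where BCL11B starts. The only GATA3 line of BCL11A, at chr2:60551912-60552208, had a signal value of 8.08 (rank 21673) and overlapped neither a BHLHE40 nor an H3K27ac line. The BHLHE40 lines of BCL11A, with signal values of 9.99 and 7.90, lay on either side of the higher-coordinate end of its record, at 60554630 to 60555770 and 60553229 to 60553734.

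**Figure D3:**
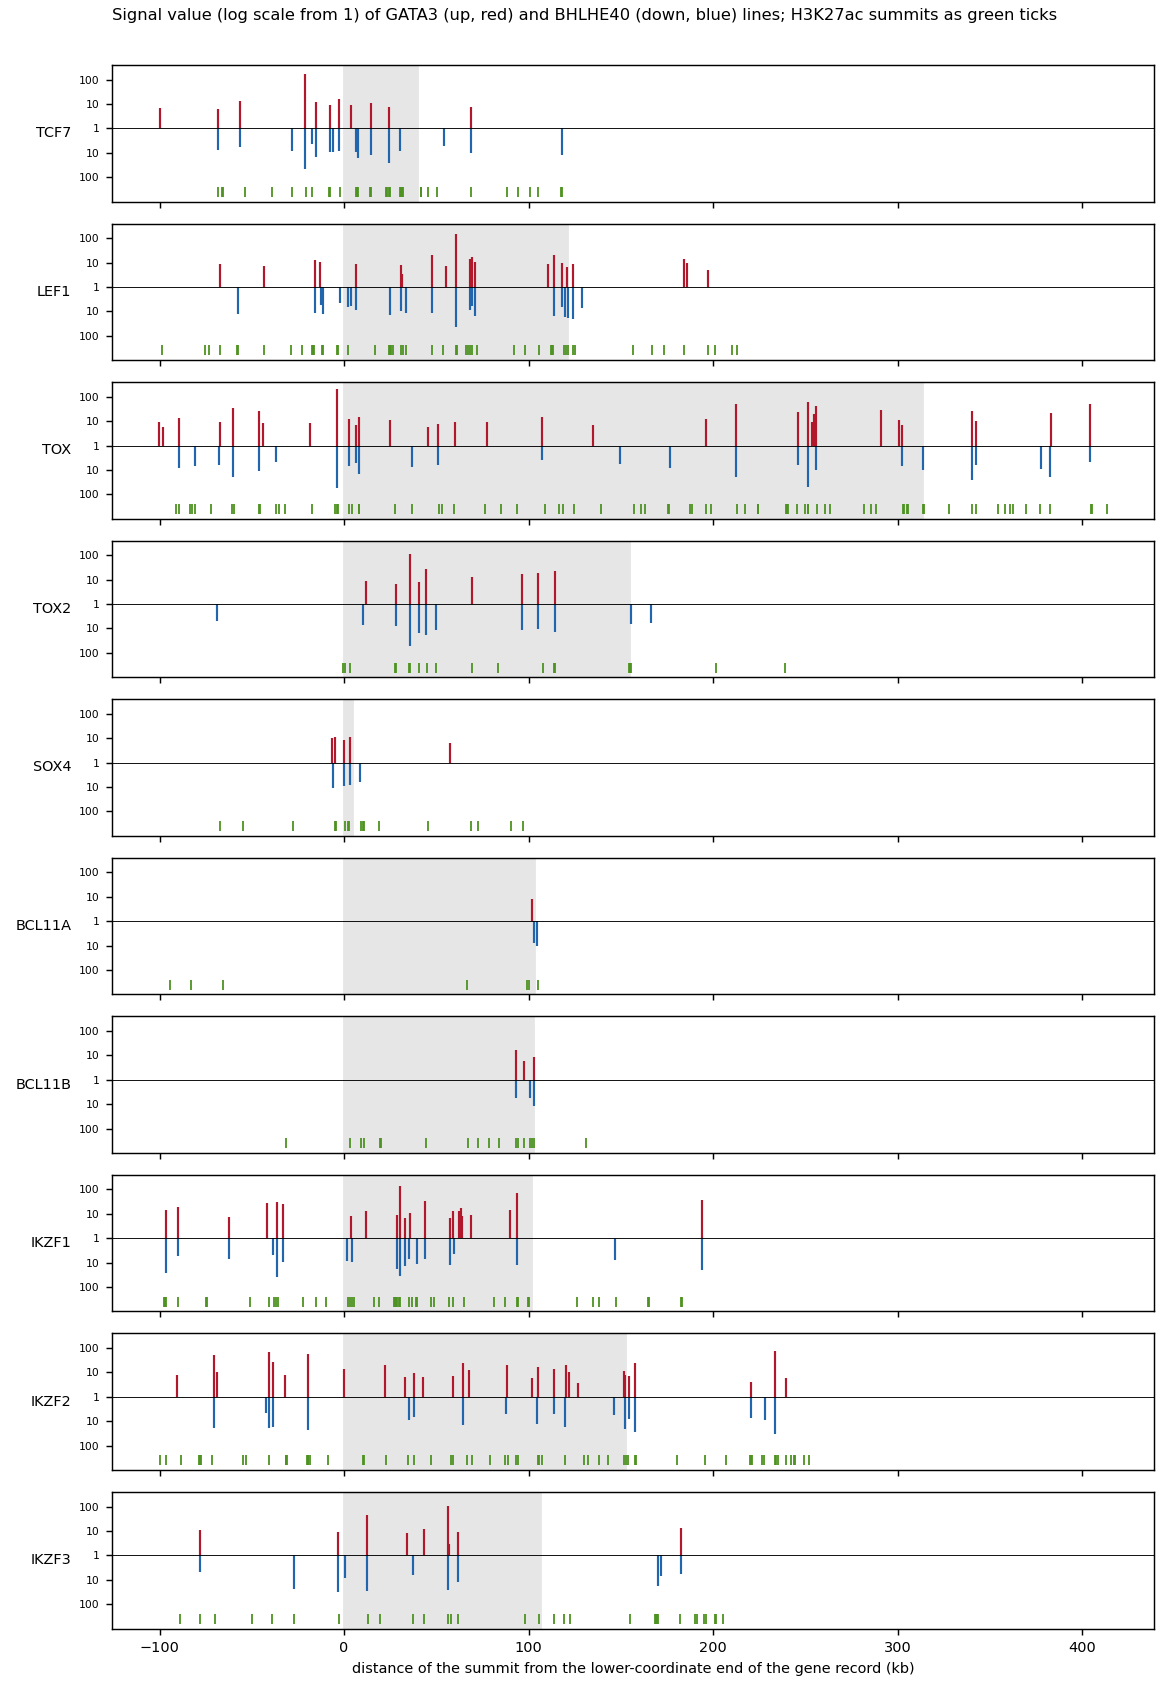
GATA3 lines (upward, red) and BHLHE40 lines (downward, blue) by distance of the summit from the lower-coordinate end of the gene record in kb, with stem length on a log scale of signal value from 1; green ticks are H3K27ac summits and the grey band is the gene record. TCF7, LEF1, TOX, TOX2, IKZF1 and IKZF3 each show 1 GATA3 stem above 100, and the factor stems of BCL11A and BCL11B are confined to one end of the record.

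The strongest line of a window rarely lay at a start, in these windows as over all genes. Among the 8 members with annotated starts, the summit of the strongest GATA3 line was over 1 kb from any start in 7, against 95% of 13932 protein-coding windows with a GATA3 line. The exception was the weak BCL11A line, 636 bp from a start. For BHLHE40 it was 7 of 8, against 84.1%, with BCL11B as the exception at 187 bp. Of the lines in the windows of these 8 members, 7 of 101 GATA3 summits lay within 1 kb of a start of the member (6.93%, against 6.02% over all genes). The same was true of 9 of 99 BHLHE40 summits (9.09%, against 11.1%) and of 14 of 262 H3K27ac summits (5.34%, against 5.7%). All of these shares are near the background.

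Most members nonetheless had some line near a start. Among the same 8 members, a GATA3 line reached within 1 kb of a start in 7, against 23.7% of 15842 protein-coding genes. A BHLHE40 line did so in 7, against 49.6%, and an H3K27ac line in 8, against 57.6%. These members have a median of 2 annotated starts and up to 5, against a median of 1 over all genes, and a gene with more starts has more chances to be counted. TOX and IKZF3 have no start in the promoter table, and either end of their records was used. With them the counts were 7, 9 and 10 of 10, where the BHLHE40 line of IKZF3 is near the lower-coordinate end, which is not where IKZF3 is known to start. A line that covered the start base itself was less common: over the 10 members it was found in 4 for GATA3, 8 for BHLHE40 and 5 for H3K27ac. Any start of a member counted here, and either record end for TOX and IKZF3. No share over all genes was at hand for this count, so it cannot be set against a background.

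The arrangement at the starts differed between members. At SOX4 (start 21593751) the GATA3 summit lay 20 bp downstream and the BHLHE40 summit 22 bp upstream of the start, with signal values of 8.83 and 8.89. At BCL11B (start 99272197) they lay 68 bp and 187 bp upstream, with 8.55 and 11.8, beside the only CACGTG of the 17 stretches. At the IKZF2 start 213152456 the GATA3 line was weak (7.52) and the BHLHE40 line stronger (20.7), with summits 380 bp and 426 bp downstream, whereas the tandem TGATAG lies upstream. Both factors were thus present at these 3 starts, and at LEF1 (start 108166301), where the summits lay 470 bp and 453 bp downstream.

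Where a gene has several starts, these could differ. The TCF7 start 134123618 had GATA3 and BHLHE40 summits 805 bp and 836 bp upstream, and the BCL11A start 60552714 had GATA3 636 bp downstream and BHLHE40 838 bp upstream. Lines of both factors also reached within 1 kb of the IKZF1 start 50308700, with summits 1385 bp and 1239 bp upstream. Other starts had a BHLHE40 summit closer by and no GATA3 line within 1 kb. The first TCF7 start, 134115613, had a BHLHE40 summit 128 bp upstream (16.1) and the nearest GATA3 summit 3669 bp away. The first IKZF1 start, 50304716, had BHLHE40 358 bp and GATA3 2599 bp downstream. At the higher-coordinate end of the TOX record, where TOX is known to start, the BHLHE40 summit was 35 bp away (10.5) and the nearest GATA3 summit 11254 bp away. Neither factor had a summit within 3 kb of either annotated TOX2 start. At the higher-coordinate end of IKZF3, where this gene is known to start, the nearest factor summit was 44810 bp away, while an H3K27ac summit lay 755 bp away.

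GATA3 and BHLHE40 lines met more often in these windows than over the whole lists. Of the 143 GATA3 lines, 91 overlapped a BHLHE40 line by at least 1 bp (63.6%, exact 95% binomial interval 55.2 to 71.5), against 48.7% of the list. Of the 136 BHLHE40 lines, 90 overlapped a GATA3 line (66.2%, 57.6 to 74.1), against 53% of the list. The intervals cover counting error only, and neighbouring lines of 1 locus are not independent. The members' lines were also wider than those of the lists, with medians of 717 bp against 596 bp for GATA3 and 811 bp against 739 bp for BHLHE40. The part of width in these shares was not tested, and no test of these differences was made. By member, the GATA3 share was 9 of 11 for TCF7, 7 of 9 for TOX2, 15 of 22 for IKZF1 and 14 of 21 for LEF1, but 19 of 33 for TOX and 15 of 29 for IKZF2.

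The shares with H3K27ac were also set beside those of the lists. The mark was present at 84 of 143 GATA3 lines (58.7%, 50.2 to 66.9), against 49.1% of the list, and at 101 of 136 BHLHE40 lines (74.3%, 66.1 to 81.4), against 76.4%, a share near that of the list. Seen from the mark, 100 of 373 H3K27ac lines overlapped GATA3 (26.8%, 22.4 to 31.6), against 15.3%, and 141 overlapped BHLHE40 (37.8%, 32.9 to 42.9), against 22.9%. The members' H3K27ac lines were wider (median 283 bp) than those of the list (232 bp) but had a lower median signal value, 2.83 against 3.31. A −log10 q of at least 5 was listed for 131 of the 373 (35.1%), against 25.1% of the list. In BCL11B that was 1 of 18 lines, the one over the start at 99271883 to 99272213, with a signal value of 5.06.

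When lines that touch were merged, the windows held 401 places. All 3 lists met at 67 of them, GATA3 and BHLHE40 without H3K27ac at 20, GATA3 and H3K27ac at 14, and BHLHE40 and H3K27ac at 33. GATA3 stood alone at 38, BHLHE40 at 13 and H3K27ac at 216. The H3K27ac list is a pooled one and the factor lists were filtered by repeatability, so these numbers are not on one scale. The places with GATA3 alone were mainly in TOX (13), IKZF2 (9) and IKZF1 (6), and those with all 3 lists in TOX (15), LEF1 (10), IKZF2 (10) and IKZF1 (9). BCL11A had no place with all 3 lists and BCL11B had 2. Places were not counted over all gene windows, so these numbers have no background. Counted by lines, 49.0% of the members' GATA3 lines overlapped both other lists, against 37.7% of the whole GATA3 list. For BHLHE40 lines it was 50%, against 41.1%. GATA3 lines free of both other lists made up 26.6% of the members' GATA3 lines, against 39.9% of the list, and were weaker, with a median signal value of 8.93 against 12.6 for the lines with both.

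**Figure D4:**
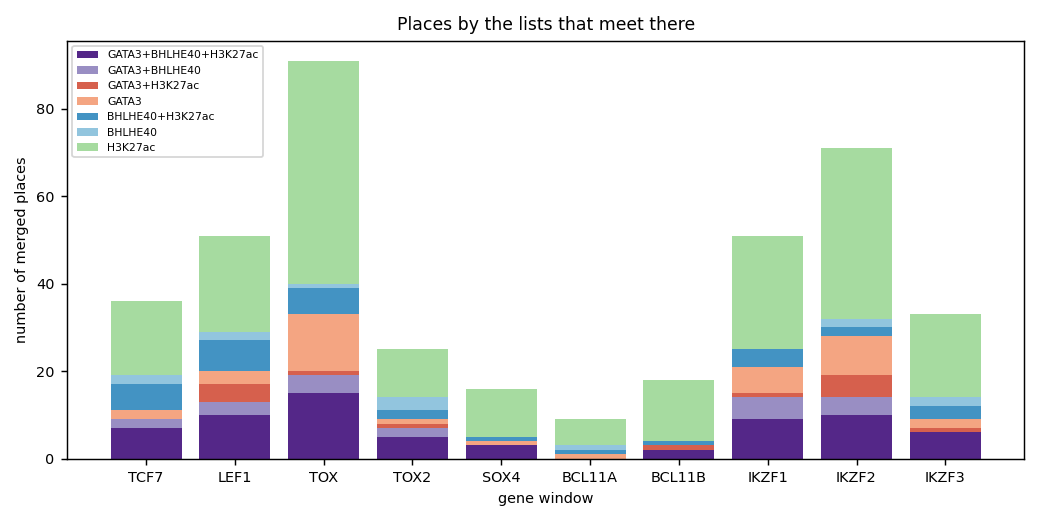
Number of merged places (vertical axis, from 0) in the window of each gene (horizontal axis), stacked by the combination of lists that meet there. The dark part, with all 3 lists, runs from 0 places in BCL11A to 15 in TOX, and H3K27ac alone is the largest class in every window. The H3K27ac list is pooled and the factor lists were filtered by repeatability, so class sizes are not on one scale.

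The strong GATA3 lines were shared ones. All 6 members' lines among the strongest 1% overlapped a BHLHE40 line, as did 96.9% of the 290 such lines of the list, so this is not particular to these genes. The same held for all 18 among the strongest 10%, against 90.2% of the list. In 5 of the 10 windows (TCF7, LEF1, TOX, TOX2 and IKZF2) the strongest GATA3 and the strongest BHLHE40 line overlapped each other, against 32.1% of the 16482 windows with lines of both. In IKZF1 and IKZF3 the strongest lines lay 66499 bp and 59290 bp apart, and each overlapped a weaker line of the other factor.

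Where lines overlapped, the summits lay close together. Over the 91 shared GATA3 lines the median distance to the nearest BHLHE40 summit was 27 bp (95% interval of the median 18 to 31), against 35 bp over the 14123 shared lines of the list, and 79.1% were within 50 bp, against 61.5%. Within 10 bp the share was lower than in the list, 17.6% against 19.5%. TOX had the shortest median, 17 bp over 19 lines with 18 of them within 50 bp, followed by IKZF2 with 18 bp over 15 lines. The medians were 22 bp for IKZF3, 27 bp for TOX2, 28 bp for LEF1 and 31 bp for both TCF7 and IKZF1, and 61 bp and 66.5 bp for BCL11B and SOX4, which had 2 and 4 shared lines. Spearman's rho between the signal values of both factors was 0.43 over the 91 lines and 0.27 over the list, given as a description, since the lines share libraries and loci.

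**Figure D5:**
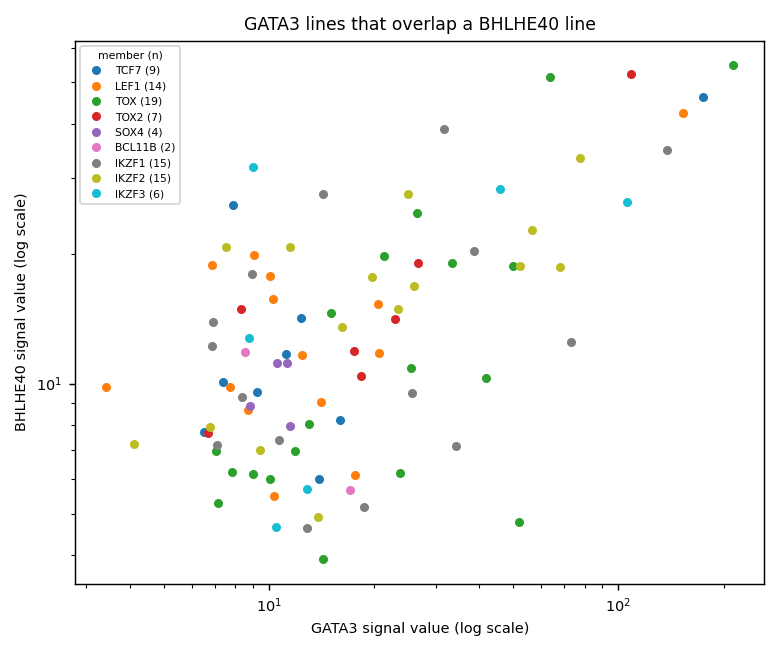
GATA3 signal value (horizontal log axis) against BHLHE40 signal value (vertical log axis) for the 91 GATA3 lines that overlap a BHLHE40 line, coloured by gene, with the number of lines in brackets. The highest points on both axes belong to TOX, TCF7, LEF1, TOX2 and IKZF1, and at low GATA3 values the BHLHE40 values scatter widely (Spearman's rho 0.43).

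By likeness of the 3 densities, LEF1 and IKZF1 were the closest pair, at a distance of 1.17 lines per 100 kb. The distance was a straight-line one over unscaled densities, so H3K27ac, with the widest range, could weigh most. TOX and IKZF2 were both nearest to IKZF1, and TCF7 was nearest to LEF1. TOX2 and BCL11B were nearest to each other, as were SOX4 and IKZF3, and BCL11A was nearest to BCL11B. In GATA3 and BHLHE40 density, however, TOX2 (2.54 and 3.38) lay closer to IKZF3 (2.94 and 3.59) than to BCL11B (0.990 and 0.990).

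Related genes outside the 10 had fewer lines. Among 8 paralogs (TCF7L1, TCF7L2, TOX3, TOX4, SOX11, SOX12, IKZF4 and IKZF5) the median was 5.5 GATA3, 5.5 BHLHE40 and 18.5 H3K27ac lines per window, against 10, 14.5 and 33.5 for the members. None of the 8 held a GATA3 line among the strongest 1% and 1 held a BHLHE40 line among the strongest 5%. Per 100 kb their medians were 1.94, 2.34 and 6.57. IKZF4 (Eos) had the most, with 10 GATA3, 12 BHLHE40 and 33 H3K27ac lines, and TOX3 the fewest, with 1 of each. Among 14 partner genes, which encode cofactors of TCF-1 and LEF-1, members of the NuRD remodelling complex and other T-lineage factors, the medians were 5, 6.5 and 19.5. Per 100 kb they were 1.94, 2.29 and 7.96, and 5 of the 14 windows held a BHLHE40 line among the strongest 5%. TLE4, a corepressor gene, had the most GATA3 lines (18), and 1 gene, MTA2 of the NuRD complex, had a line among the strongest 1% (signal value 100.2). An H3K27ac line reached a start in 14 of these 14 genes, against 57.6% of protein-coding genes with an annotated start. A BHLHE40 line did so in 13, against 49.6%, and a GATA3 line in 7, against 23.7%.

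The 9 T-cell marker genes used to check the label (CD3D, CD3E, CD3G, CD247, CD2, CD5, CD7, LCK and ZAP70) had densities near those of the members, with medians of 3.71 GATA3, 5.53 BHLHE40 and 12.8 H3K27ac lines per 100 kb. None of these 9 windows held a GATA3 line among the strongest 1%, and 5 held a BHLHE40 line among the strongest 5%. The windows of CD3D, CD3E and CD3G overlap and share their strongest GATA3 line, so the 9 genes stand for 7 separate loci and the medians count one locus 3 times. LCK and the partner gene HDAC1 had the same strongest signal values, 25.7 for GATA3 and 37.3 for BHLHE40. The marker and partner lists are therefore not fully separate. No difference between these genes and the members was tested.

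Densities were lower for 8 regulators of other lineages (PAX5, EBF1, SPI1, CEBPA, HNF4A, MYOD1, SOX10 and NEUROD1), with medians of 4 GATA3, 4 BHLHE40 and 14 H3K27ac lines per window and 0.995, 1.40 and 4.13 per 100 kb. PAX5 and SPI1 are also among the B-cell and myeloid markers. None had an H3K27ac or a GATA3 line within 1 kb of a start, against 57.6% and 23.7% of protein-coding genes with an annotated start. A BHLHE40 line lay there in 2 of the 8, against 49.6%. MYOD1, the muscle regulator, had 1 GATA3, 0 BHLHE40 and 1 H3K27ac line, and SOX10, of the neural crest, had no GATA3 line. These lists were read by counts alone, and the differences between them were not tested.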

How the data were processed

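ChIP-seq of stimulated Jurkat cells was available as 3 deposited peak lists, 1 for each of the 3 groups of 2 samples used (GATA3, BHLHE40 and H3K27ac with control lentivirus); the labels gave 38 samples in 19 groups. Cells were fixed, sonicated and immunoprecipitated, per the labels' protocols. The submitters' processing notes name MACS2, bcl2fastq 2.20 and hg38, without roles. Per the deposited file names, the factor lists were limited to an irreproducible discovery rate (IDR) of 0.05 and the H3K27ac list is a pooled one. A list filtered by repeatability holds fewer weak regions than a pooled one, so counts of different lists, where given side by side, are not on one scale.

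The authors' score per line ran from 540 to 1000 in the factor lists. The signal value per line is an enrichment computed by the authors, whose reference is not given in the sources used here. The −log10 q and the summit offset of each line were deposited by the authors too. They served to describe, rank or filter lines within 1 list. The depth is unknown.

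Lines were taken by overlap of at least 1 bp with the RefSeq record and 100 kb on each side. Gene starts and sequences came from the RefSeq promoter table (GRCh38.p14), which held 8 of the 10 members, and no entry was used for TOX and IKZF3. The gene table gives no exons, so exons, introns and untranslated regions were not told apart. Positions are 1-based on GRCh38. Shares have exact (Clopper-Pearson) 95% intervals. No p-value was computed. Lines named in the text were those nearest a start, up to 3 of the highest signal value per factor list, the strongest and widest H3K27ac lines and the strongest shared place; another line of IKZF2 and the H3K27ac lines of neighbouring genes were named after their values were seen. Alternatives were a flank of 50 kb, summit-based windows, a score of at least 830, H3K27ac lines at a −log10 q of 5 or more, overlap of at least 50%, a start distance of 5 kb and 2 settings added after seeing the data. The counting functions were tested on simulated data. Computations ran in Python 3.11.15 (numpy 2.4.6; pandas 2.3.3; scipy 1.17.1), with figures from matplotlib 3.10.9. The members and the gene lists were chosen with earlier results of these data known.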

Additional observations from a re-analysis of the deposited data

How the results depend on the processing

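Of 49 alternatives computed for 10 results, 35 were planned and 14 were chosen after the data had been seen. Of these, 43 stayed within the spread or 1.5 times the reported value and 6 moved. Counting only lines that touch the gene record, an added setting, lowered the counts to 89 GATA3, 75 BHLHE40 and 187 H3K27ac lines. Restricting H3K27ac to a −log10 q of 5 or more gave 131 lines, with H3K27ac at 40.6% of GATA3 lines and at 54.4% of BHLHE40 lines. Both settings count fewer lines by construction. Keeping only lines nearest to a member's record left 115 GATA3, 103 BHLHE40 and 262 H3K27ac lines, with 63.5% of GATA3 lines shared with BHLHE40. Over the alternatives this share ran from 58.1% (score of at least 830) to 64.7% (flank of 50 kb). With lines touching the gene record only it was 59.6%. These alternatives were computed for the member windows only, without the share over the whole list at the same setting. They do not show whether the differences from the lists would hold. No paired analysis was possible because a single list represents the pair of samples in a group, without separate values, and for the same reason no replicate could be left out. The unknown depth limits every count, since a deeper library lists more weak regions.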
